A study of Mus musculus with 6 samples.

Results

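The liver carboxylesterases are 10 genes of the mouse Ces family: Ces1c, Ces1d, Ces1e, Ces1f, Ces1g, Ces2a, Ces2c, Ces2e, Ces3a and Ces3b. They were picked by symbol from the 53599 genes of the count table, and all 10 passed the filter on low counts that left 12691 genes for testing. The list was selected on measured values, with the difference between Sox4 and empty vector known, so the differences of the 10 genes are given as a description, with no p-value. Whether each passed the threshold in the fit of all genes is stated in the same sense and supports nothing. RNA-Seq was performed on liver hepatocytes from 3 mice per group, harvested 4 days after virus injection. Mice of the empty vector (EV) group, labelled with the genotype WT, received AAV8-TBG-Cre. Mice of the Sox4 group, labelled with the genotype Sox4, received AAV8-TBG-HA-Sox4-P2A-Cre, in which an HA-tagged mouse Sox4 precedes Cre behind a self-cleaving P2A peptide. Both groups therefore received Cre. The hosts were male C57BL/6J mice that carry Cas9 and EGFP at the Rosa26 locus, switched on by Cre. AAV8 is an adeno-associated virus that infects liver, and the TBG promoter restricts both vectors to hepatocytes, so neighbouring liver cells were not targeted. Hepatocytes were isolated by liberase digestion and Percoll, with no sort for cells that took up virus.

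Carboxylesterases are serine hydrolases that cleave ester, amide and thioester bonds. Most sit in the lumen of the endoplasmic reticulum (ER), where a signal at the end of the protein retains them, and hepatocytes hold large amounts of them. They activate or clear ester drugs and environmental esters, and several also hydrolyse stored triacylglycerol, the step that supplies lipid to very low density lipoprotein (VLDL).

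Total counts ranged from 15090629 to 16249382 in the EV libraries and from 16679195 to 16964860 in the Sox4 libraries. Sox4 had 2, 0 and 3 counts in the EV libraries against 21697, 15097 and 11816 in the Sox4 libraries. Levels are given as CPM, counts scaled to library sizes that were themselves adjusted by the trimmed mean of M-values (TMM). The mean TMM-scaled size of the Sox4 libraries was 1.48 times that of EV, against 1.07 times for total counts, so the CPM scale lowers Sox4 levels relative to plain library size. Hepatocyte markers (Ahsg, Alb, Apoa1, Apoc3, Fgb, Hpx and Ttr), mostly Alb, summed to between 113168 and 140815 CPM in EV against 85847 to 97207 with Sox4. Of the 7, 5 were lower past the threshold, while Ahsg and Ttr did not pass. Stellate markers, mostly Reln, summed to between 8.40 and 44.7 CPM in EV against 76.7 to 137 with Sox4, with 2 of 3 tested genes higher. Reln alone had 7.09, 22.6 and 37.5 CPM in EV and 126, 117 and 50.8 CPM with Sox4. Dcn did not pass (adjusted p = 0.0504, edgeR), with overlapping groups. Cholangiocyte markers summed to between 10.02 and 21.9 CPM in EV against 48.5 to 59.0 with Sox4, with Epcam and Spp1 higher past the threshold. Sox9, the most abundant of them in EV, had 10.7 ± 5.59 CPM in EV and 12.6 ± 3.26 CPM with Sox4. Its groups overlapped and it did not pass (adjusted p = 0.618, edgeR). Krt7 and Krt19 had 0 counts in every EV library and at most 7 and 9 counts with Sox4. Kupffer cell markers summed to 9.32 to 23.2 CPM against 21.7 to 55.3 (2 of 6 tested genes higher). Endothelial markers summed to 16.8 to 28.2 against 14.6 to 36.1 (2 of 7 higher, 1 lower), and lymphoid and neutrophil markers to 0.771 to 2.05 against 1.40 to 4.29 (0 of 1 passed). Erythroid markers, almost all Alas2 in EV, summed to between 93.0 and 126 CPM in EV against 4.97 to 15.5 with Sox4, and Alas2 passed as lower. The globin genes of that list had too few counts to test and went the other way, with 2 counts of Hba-a1 in each EV library against 4 to 11 with Sox4, and 0 to 5 counts of Hbb-bs against 9 to 22. Over all genes tested, 26.0% passed as lower and 29.0% as higher. The part of these cell types in the results that follow was not tested. In bulk RNA, fewer cells of a type and less RNA per cell cannot be told apart.

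The 10 genes stand in a pair of neighbouring arrays on chromosome 8. In the GENCODE M21 gene order, the Ces1 genes lie next to each other on the minus strand, followed by the Ces2 and Ces3 genes on the plus strand. Their coding sequences are near copies in places: Ces3a and Ces3b were 95.3% identical, Ces2c and Ces2b 91.3%, and Ces1c and Ces1b 88.8%. Of all 50-base windows in the Ces3a transcripts, 30.9% also occurred in Ces3b, and 26.1% of those of Ces3b occurred in Ces3a. Ces2c shared 38.2% of its windows with the pseudogene Ces2d-ps, Ces2a shared 20.9% with Gm7208 and Ces1c shared 10.7% with Ces1b. For Ces1d, Ces1e, Ces1f, Ces1g and Ces2e the shared windows came to between 1.28% and 3.36%. How reads that map to several genes were counted is not given in the sources used here, so Ces3a, Ces3b, Ces2a, Ces2c and Ces1c carry that uncertainty. Gm7208 had 3 to 17 counts per library and Ces2d-ps 0 to 7, whereas Ces1b had 745 to 1803. Ces1d also overlaps Gm45909 on its own strand (8 to 52 counts) and Ces3a overlaps Gm45724 on the other strand (0 to 23 counts).

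Start-site sequences of 300 bases, 250 before to 50 after the start, were available from RefSeq for 7 of the 10 genes on GRCm38.p6, a different build from the GRCm39 of the counts. Ces1d, Ces1f and Ces3a had no entry and were not searched. The SOX core ACAATG stood in 2 of the 7 sequences, Ces2c at position -57 and Ces3b at position 36 from the start, and in 12.6% of 32851 mouse start-site sequences. The other SOX core, ACAAAG, stood in 0 of the 7 and in 18.7% of all. The HNF4 element CAAAGTCCA stood in 0 of the 7 and in 0.475% of all. A string this rare could hardly occur among 7 sequences, so its absence shows nothing about HNF4 sites. The C/EBP element TTGCNNAA stood in 3 of the 7 (Ces1c at -239, Ces2a at -208 and -83, Ces2e at -93) and in 10.8% of all. Both strands were searched, and a match is a description of letters, not a bound site. The motifs share no more than part of their letters, since HNF4's element holds CAAAG of the SOX core ACAAAG. Printed here are the most abundant gene (Ces1c), the gene with the deepest drop (Ces3b), a Ces1 gene that fell (Ces1e) and the Ces2 gene with a SOX core (Ces2c), each 5′ to 3′ on its own strand, with matches in capitals.
Ces1c, chr8:93131234-93131533, minus strand: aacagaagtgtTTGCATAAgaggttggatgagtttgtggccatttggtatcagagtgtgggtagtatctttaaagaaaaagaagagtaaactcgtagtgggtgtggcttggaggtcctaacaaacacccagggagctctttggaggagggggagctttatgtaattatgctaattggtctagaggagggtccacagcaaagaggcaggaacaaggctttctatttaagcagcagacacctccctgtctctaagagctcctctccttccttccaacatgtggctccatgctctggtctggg
Ces1e, chr8:93229570-93229869, minus strand: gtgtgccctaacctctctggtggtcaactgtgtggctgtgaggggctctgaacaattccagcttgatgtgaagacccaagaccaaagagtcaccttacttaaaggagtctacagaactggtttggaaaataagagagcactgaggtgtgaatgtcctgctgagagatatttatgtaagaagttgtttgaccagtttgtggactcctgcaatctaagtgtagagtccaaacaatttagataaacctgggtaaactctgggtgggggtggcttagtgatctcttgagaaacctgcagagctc
Ces2c, chr8:104846818-104847117, plus strand: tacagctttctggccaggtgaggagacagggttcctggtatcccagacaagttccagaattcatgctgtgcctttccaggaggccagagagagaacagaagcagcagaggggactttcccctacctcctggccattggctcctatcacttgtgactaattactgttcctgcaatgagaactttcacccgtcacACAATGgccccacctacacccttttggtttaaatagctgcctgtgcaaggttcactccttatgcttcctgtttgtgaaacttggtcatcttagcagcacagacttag
Ces3b, chr8:105083505-105083804, plus strand: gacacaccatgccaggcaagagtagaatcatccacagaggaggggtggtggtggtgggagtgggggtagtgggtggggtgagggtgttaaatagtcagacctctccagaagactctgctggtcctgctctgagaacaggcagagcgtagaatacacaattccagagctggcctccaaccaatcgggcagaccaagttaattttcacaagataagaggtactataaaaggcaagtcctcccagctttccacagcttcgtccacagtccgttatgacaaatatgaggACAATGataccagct
The Ces1e sequence held none of the 4 motifs, and the same is true of the Ces1g sequence, which is not printed.

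With Sox4, 7 of the 10 liver carboxylesterases were lower past an adjusted p of 0.05 (edgeR, over all genes tested), 0 were higher and 3 did not pass. Of all genes tested, 26.0% passed as lower, 29.0% as higher and 55.1% in either direction. The libraries of the groups did not overlap for the same 7 genes, and for 63.0% of all genes. The median log2 fold change of the 10 was -1.09, against 0.04 over all genes. Because the list was chosen with this contrast known, nothing is read from these counts about the family as a whole. The differences ranged from a 98.0-fold drop of Ces3b to a Ces1d mean that was 1.26-fold higher in Sox4, so the members did not move as a block.

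**Figure D1:**
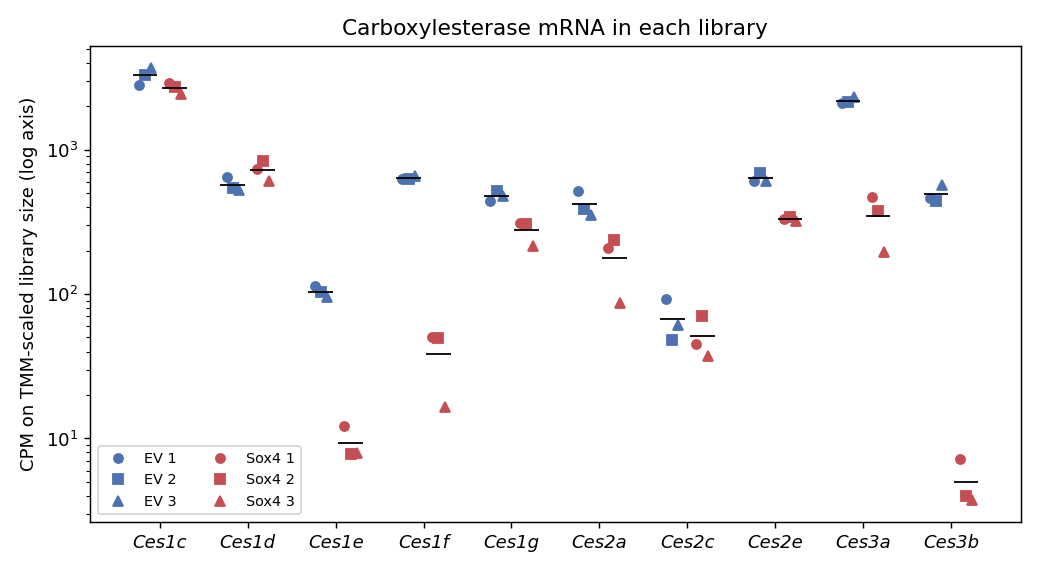
Level of each liver carboxylesterase in the 6 libraries (vertical axis: CPM on TMM-scaled library size, log scale; blue EV, red Sox4, 1 symbol per library, line at the group mean). Ces3b, Ces1f, Ces1e and Ces3a show the widest separation, while the groups overlap for Ces1c, Ces1d and Ces2c.

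Ces3b showed the deepest loss of the 10. Ces3a and Ces3b encode ER-resident liver carboxylesterases. Ces3b had 6009, 5798 and 7850 counts in the EV libraries and 145, 78 and 74 in the Sox4 libraries. Its level went from 463, 440.3 and 570.1 CPM to 7.27, 3.98 and 3.75 CPM, with no overlap between the groups. The means were 491 ± 69.3 and 5.0 ± 1.97 CPM (SD, n = 3), a log2 fold change of -6.61 (SE 0.32), and only 8 of the 12691 tested genes had a lower value. All Sox4 libraries remained far above the floor of 3 counts, but that floor covers counting error only. Whether some of these reads came from Ces3a, which shares sequence with Ces3b, was not tested.

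Ces3a, the close copy beside it, fell less. It measured 2087, 2146 and 2308 CPM in EV and 468, 377 and 195 CPM in Sox4, again with no overlap. The log2 fold change was -2.65 (SE 0.38), from 2180.0 ± 114 to 347 ± 139 CPM, which is 6.29-fold. The ratio within each library shows the unequal change of the pair without any scaling between libraries. For every 100 counts of Ces3a, Ces3b had 22.2, 20.5 and 24.7 counts in EV and 1.55, 1.06 and 1.92 in Sox4. The ratio was thus 14.9 times as high in EV by its means, and its groups did not overlap. The shared windows named above mean that reads assigned to the wrong copy could move this ratio, which was not tested.

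Among the Ces1 genes, Ces1f and Ces1e fell steeply. Ces1f encodes an ER lipid hydrolase, also known as triacylglycerol hydrolase 2. Its level was 621, 624 and 656 CPM in EV and 50.2, 49.2 and 16.6 CPM in Sox4. All Sox4 libraries were below all EV libraries, with Sox4 replicate 3 lowest. The log2 fold change was -4.03 (SE 0.53), or 16.4-fold from 634 ± 19.6 to 38.7 ± 19.2 CPM. Ces1e encodes egasyn, which binds β-glucuronidase and holds it in the ER. It had 114, 103 and 95.4 CPM in EV and 12.2, 7.82 and 7.96 CPM in Sox4, an 11.1-fold drop with a log2 fold change of -3.48 (SE 0.22). Gusb, the β-glucuronidase itself, measured 31.7 ± 3.69 CPM in EV and 34.3 ± 3.13 CPM in Sox4 (log2 fold change 0.12, SE 0.12, adjusted p = 0.467, edgeR).

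The neighbours Ces1c, Ces1d and Ces1g behaved otherwise. Ces1c encodes the esterase that rodents secrete into plasma, and it was the most abundant member in both groups. It measured 2818, 3277 and 3692 CPM in EV and 2867, 2696 and 2407 CPM in Sox4, and these ranges overlap. The log2 fold change of -0.30 (SE 0.13) did not pass the threshold, and it turned to 0.17 when libraries were scaled by size alone. In raw counts Ces1c held 36570, 43156 and 50838 in EV and 57209, 52782 and 47492 in Sox4.

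Ces1d is the triacylglycerol hydrolase (TGH) that mobilises stored lipid for VLDL assembly. It measured 643, 541 and 526 CPM in EV and 730.4, 831 and 601 CPM in Sox4. The Sox4 values of 730.4 and 831 lay above every EV library, and the lowest, 601, lay within the EV range. Its log2 fold change of 0.34 (SE 0.16) was the only one above 0 and did not pass. It passed as higher with library size alone (0.81), with no filter on low counts (0.38) and without Sox4 replicate 3 (0.46). Ces1g, a further lipid-hydrolysing carboxylesterase of liver, fell from 439, 519 and 477 CPM to 311, 303 and 215 CPM, with no overlap. This was a log2 fold change of -0.79 (SE 0.18), or 1.73-fold. With library size alone it was -0.32 and no longer passed.

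**Figure D2:**
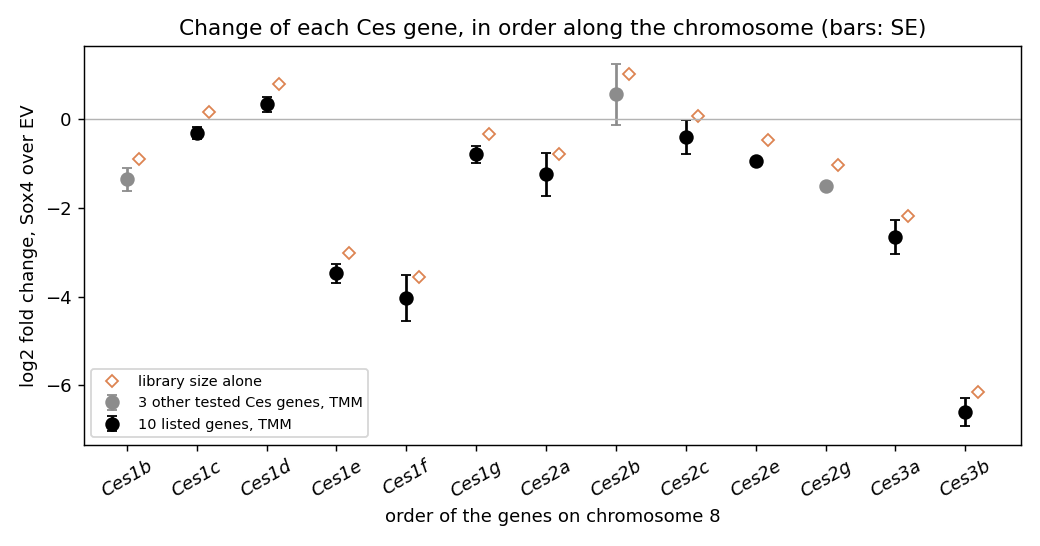
Log2 fold change of Sox4 over EV for the 13 tested Ces genes in their order along chromosome 8 (black circles, the 10 liver carboxylesterases; grey circles, the other 3; bars, SE; open diamonds, the same with library size alone). Ces1e and Ces1f at -3.48 and -4.03 stand between Ces1d at 0.34 and Ces1g at -0.79, and Ces3b lies lowest at -6.61.

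Neighbours in the array had unlike values. Ces1e and Ces1f are adjacent, with Ces1d at 0.34 on one side and Ces1g at -0.79 on the other. Within a library, Ces1f had 96.5, 115 and 125 counts per 100 counts of Ces1d in EV, and 6.88, 5.93 and 2.76 in Sox4. Ces1e had 17.7, 19.1 and 18.1 counts per 100 of Ces1d in EV, and 1.67, 0.941 and 1.32 in Sox4. Against its other neighbour, Ces1g, Ces1f had 142, 120.3 and 138 counts per 100 in EV and 16.2, 16.2 and 7.70 in Sox4. None of these ratios overlapped between the groups, which restates the unlike changes of these genes within each library and is no separate support. Few 50-base windows are shared among these genes.

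The Ces2 genes, whose products favour esters with a small acyl group and also cleave acylglycerols, had smaller differences than the Ces3 genes. Ces2e had 601, 686 and 603 CPM in EV and 331, 339 and 318 CPM in Sox4, the tightest Sox4 values of the 10. Its log2 fold change was -0.94 (SE 0.068), or 1.91-fold. Ces2a had 512, 388 and 349.6 CPM in EV and 208, 236 and 86.9 CPM in Sox4. The groups did not overlap, and the log2 fold change of -1.24 (SE 0.48) corresponds to 2.36-fold. That call was lost with library size alone (-0.77), with no filter (-1.19), without EV replicate 1 (-1.08) and without Sox4 replicate 1 (-1.37). Ces2c had 92.4, 48.1 and 61.1 CPM in EV and 45.1, 70.5 and 37.4 CPM in Sox4. Those ranges overlap, and the log2 fold change of -0.40 (SE 0.39) did not pass and became 0.068 with library size alone. Counts of Ces2a per 100 of Ces2e overlapped between groups, at 85.2, 56.6 and 58.0 in EV and 62.8, 69.5 and 27.3 in Sox4.

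The make-up of the family differed between the groups. The 10 genes together took 0.722%, 0.736% and 0.791% of all counts in EV and 0.592%, 0.577% and 0.457% in Sox4. Ces1c supplied 36.8 ± 3.01% of the family's counts in EV and 57.9 ± 3.59% in Sox4. Ces3a went from 24.7 ± 0.207% to 7.33 ± 2.16%, and Ces3b from 5.55% to 0.107%. Ces1d went from 6.49 ± 1.05% to 15.6 ± 1.20%, while Ces2e (7.15% and 7.22%) and Ces1g (5.42% and 5.96%) kept nearly equal shares. By subfamily, Ces1 genes summed to 5048 ± 406 CPM in EV and 3702 ± 396 CPM in Sox4. Ces2 genes summed to 1114 ± 96.4 and 557 ± 104 CPM, and Ces3 genes to 2671 ± 180 and 352 ± 140.3 CPM.

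**Figure D3:**
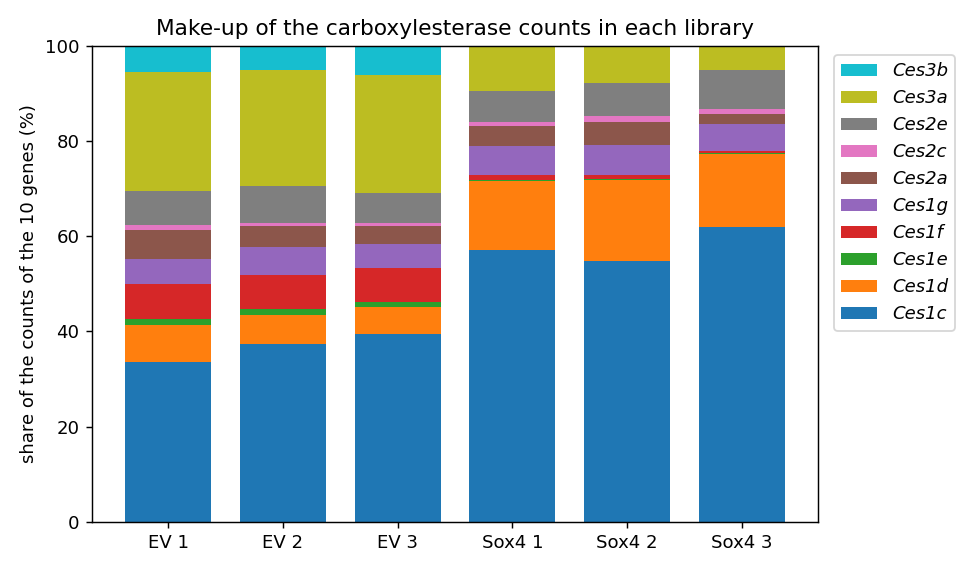
Share of the counts of the 10 liver carboxylesterases taken by each gene in each library (stacked bars, vertical axis in percent from 0 to 100). Ces1c and Ces1d fill more of the bar in the 3 Sox4 libraries, Ces3a shrinks to a mean of 7.33%, and Ces1e, Ces1f and Ces3b become hardly visible.

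Levels between genes were compared as CPM per kilobase of the longest coding transcript, to allow for transcript length. Which transcripts were expressed, and reads shared between copies, were not accounted for. In EV the order was Ces1c (1785), Ces3a (1065), Ces1f (329), Ces1d (284.5), Ces2e (233.5), Ces2a (213), Ces3b (204), Ces1g (200.2), Ces1e (50.2) and Ces2c (34.1). Ces2e overlapped Ces2a, Ces2a overlapped Ces3b, Ces3b overlapped Ces1g and Ces1e overlapped Ces2c, whereas the other neighbours were separate in all libraries. In Sox4 the order was Ces1c (1453), Ces1d (359.7), Ces3a (169), Ces2e (122), Ces1g (116), Ces2a (90.2), Ces2c (25.9), Ces1f (20.1), Ces1e (4.50) and Ces3b (2.08). Ces3a overlapped Ces2e, Ces2e overlapped Ces1g, Ces1g overlapped Ces2a and Ces2c overlapped Ces1f, whereas the other neighbours were separate in all libraries. Ces1d moved from rank 4 to rank 2 and Ces3b from rank 7 to rank 10.

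The Sox4 libraries were not alike. Of the 10 genes, 9 had their lowest Sox4 value in Sox4 replicate 3, and Ces1e had it in Sox4 replicate 2. Among all tested genes, 34.9% had their lowest Sox4 value in Sox4 replicate 3, and among genes called lower 38.4% did. The spread was widest for Ces1f, whose highest Sox4 library was 3.03 times the lowest, followed by Ces2a at 2.71 times and Ces3a at 2.40 times. Ces2e, by contrast, spread over 1.06 times. Sox4 replicate 3 had the lowest Sox4 level of its group, 599 CPM against 1088 and 771 CPM. It also had the highest sum of hepatocyte markers, 97207 CPM, of which Alb made up 73005 CPM. Among the Sox4 libraries, Apoa1, Fgb, Hpx and Ttr were instead highest in Sox4 replicate 1. Leaving out Sox4 replicate 3 kept all 7 lower calls and added Ces1d as higher.

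Most of the remaining Ces genes had few or no counts. Of 10 other family members, 3 were tested, 2 passed as lower and 0 as higher, beside 26.0% and 29.0% of all genes tested. Ces1b, the close copy of Ces1c, had 129, 133 and 131 CPM in EV and 46.4, 38.1 and 68.9 CPM in Sox4 (log2 fold change -1.36, SE 0.25, adjusted p = 0.000354, edgeR). Per 100 counts of Ces1c, with which it shares sequence, it had 4.56, 4.06 and 3.55 counts in EV and 1.62, 1.41 and 2.86 in Sox4, with no overlap. Ces2g was at 88.3 ± 5.52 CPM in EV against 31.0 ± 0.950 with Sox4 and was called lower (log2 fold change -1.51, SE 0.059, edgeR adjusted p = 3.73e-06). Ces2b had at most 17 counts per library and did not pass. Ces1a, Ces1h, Ces2d-ps, Ces2h and Ces4a had too few counts to test, and Ces2f and Ces5a had 0 counts in every library.

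Among esterases outside the family, 6 of 10 tested genes were lower and 0 higher, with a median log2 fold change of -0.51. The shares over all genes tested were 26.0% lower and 29.0% higher. With library size alone 4 esterases were lower and 4 higher, and their median was -0.04, against 0.51 over all genes. In each fit with no filter, the mean-count filter of 50 or a replicate block, 1 esterase passed as higher. The same held without EV replicate 3 and without Sox4 replicate 1. Pon1, the paraoxonase that hepatocytes secrete onto high density lipoprotein, dropped to 205 ± 16.6 CPM against 898 ± 46.1 in EV (log2 fold change -2.13, SE 0.079, edgeR adjusted p = 2.31e-06). Aadac, an ER deacetylase that shares substrates with carboxylesterases, dropped to 347 ± 26.4 CPM against 706 ± 56.3 (-1.02, SE 0.092, adjusted p = 0.000160). Afmid, the arylformamidase of tryptophan breakdown, was -2.70 and Bphl, which activates ester prodrugs such as valacyclovir, was -1.65. Pon2 at -0.69 and Pon3 at -0.34 also passed, although with library size alone Pon2 was -0.21 and missed the threshold and Pon3 turned to 0.13. Pon3 also missed it with no filter (-0.30) and when EV replicate 2 (-0.35), EV replicate 3 (-0.31) or the second Sox4 library (-0.32) was omitted. Esd, the S-formylglutathione hydrolase, was 0.25 (adjusted p = 0.0874) and did not pass, but it did with library size alone (0.72).

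Ces1d acts on stored neutral lipid, and a related list, plotted as neutral lipid hydrolases, held other lipases, phospholipases and the Pnpla2 regulators G0s2 and Abhd5. Its members moved both ways. Of 15 tested, 7 were lower, 2 higher and 6 did not pass, with a median of -0.40. Over all genes tested, 26.0% were lower, 29.0% higher and 55.1% passed in either direction. The lower ones were Lipc, the hepatic lipase (-1.34), Abhd6, a monoacylglycerol lipase (-1.13), Lipe, hormone-sensitive lipase (-1.05), the phospholipases Pnpla8 (-0.97), Pnpla6 (-0.79) and Pnpla7 (-0.76), and Ddhd1 (-0.48). Ddhd1 missed the threshold without EV replicate 1 (-0.34), without Sox4 replicate 2 (-0.41) and with library size alone (-0.0069), as did Pnpla7 with library size alone (-0.29). Lipa, the lysosomal acid lipase, climbed to 399.7 ± 61.5 CPM against 253 ± 22.2 in EV (0.66, SE 0.15, adjusted p = 0.00411). Lpl, lipoprotein lipase, climbed to 79.6 ± 50.2 CPM against 21.7 ± 6.0 in EV (1.88, SE 0.60, adjusted p = 0.0256). That call was lost with no filter (1.91) and when EV replicate 1 (1.67), EV replicate 3 (1.86) or the first Sox4 library (1.96) was omitted. Pnpla2, the adipose triglyceride lipase, was 0.27 (adjusted p = 0.107), and it passed as higher without Sox4 replicate 1 (0.38) and with library size alone (0.74).

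Genes of lipid droplets and VLDL assembly were divided, with 3 of 13 lower, 4 higher and a median of -0.01. All genes tested were divided too, with 26.0% lower and 29.0% higher. Plin2, the main droplet coat protein of hepatocytes, had 376, 325 and 306 CPM in EV and 661, 1230.5 and 1686 CPM with Sox4, where it was called higher (log2 fold change 1.83, SE 0.41, adjusted p = 0.000964). Hilpda, an inhibitor of Pnpla2, climbed to 10.5 ± 2.80 CPM against 2.11 ± 0.375 in EV (2.31, SE 0.26, adjusted p = 7.43e-05), and Cidec, a droplet fusion protein, passed at 2.58 with overlapping groups, but not without EV replicate 1 (2.29) or EV replicate 2 (2.40). Dgat1 passed at 0.32 but missed the threshold when any 1 library was left out (0.27 to 0.34). Dgat2, which makes triacylglycerol, dropped to 271 ± 21.3 CPM against 561 ± 12.4 in EV (-1.05, SE 0.067, adjusted p = 8.83e-05), and Plin3 (-0.96) and Tm6sf2 (-0.54) were lower too, although Tm6sf2 was -0.074 and did not pass with library size alone. Apob, the structural protein of VLDL, was -0.20 and did not pass (adjusted p = 0.375), with overlapping groups. Of the receptors that return ER-resident proteins such as carboxylesterases, Kdelr1 was -0.43 (adjusted p = 0.00721) and Kdelr2 -0.20 (adjusted p = 0.14). Both turned above 0 with library size alone, at 0.044 and 0.27.

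**Figure D4:**
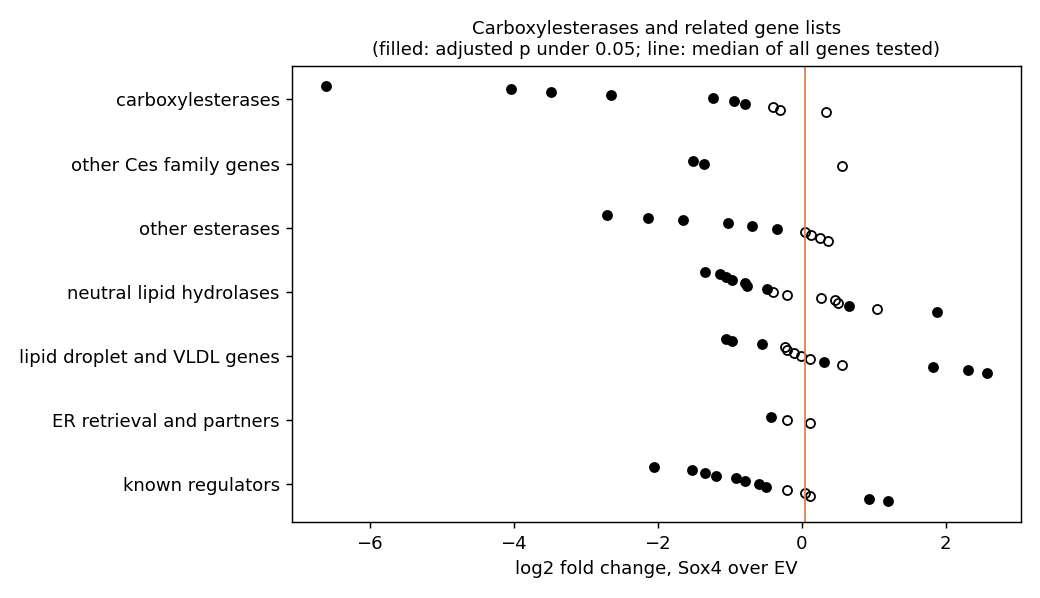
Log2 fold change of Sox4 over EV for each tested gene of the liver carboxylesterases and 6 related lists (horizontal axis; filled circles passed an adjusted p of 0.05, open circles did not; the vertical line is the median of all genes tested, 0.04). The carboxylesterases extend to -6.61, the droplet and VLDL genes lie on both sides of the line, and the regulators range from -2.05 to 1.21.

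Transcription factors known to act on carboxylesterase or drug-metabolism genes were examined last, and 8 of 13 were lower and 2 higher, with a median of -0.60. The shares over all genes were 26.0% lower and 29.0% higher. Nr1i3, the constitutive androstane receptor, dropped to 7.07 ± 0.592 CPM against 29.3 ± 4.48 in EV (log2 fold change -2.05, SE 0.15, adjusted p = 7.64e-06). Nr3c1, the glucocorticoid receptor, dropped to 36.3 ± 0.244 CPM against 104 ± 6.29 in EV (-1.52, SE 0.051, adjusted p = 3.23e-06). Cebpa (-1.34), Rxra (-1.19), Nr1h3 (-0.91), Stat5b (-0.79), Hnf4a (-0.60) and Nr1h4 (-0.50) were lower as well. With library size alone Hnf4a was -0.12 and Nr1h4 -0.033, and neither passed. Nfe2l2, the NRF2 factor of the oxidative response, climbed to 262 ± 13.1 CPM against 114 ± 5.69 in EV (1.21, SE 0.058, adjusted p = 2.13e-05) and Ahr, the aryl hydrocarbon receptor, was 0.93 (adjusted p = 0.000238). Ppara was -0.21 and did not pass.

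The genes most like the mean profile of the 10 carboxylesterases were looked up among 9015 other genes whose counts averaged 100 or more. Likeness was the root mean square distance, on the log2 scale over the 6 libraries, from the mean change relative to EV. The members ran from -6.61 to 0.34 around that mean, so a gene near it need not resemble any single member. The nearest were Hp at 0.096, Prr16 at 0.097, Acsm1 at 0.112, Sfxn5 at 0.133 and Trabd at 0.142. Hp, haptoglobin, which binds free haemoglobin in plasma, had 2966 ± 86.3 CPM in EV and 698 ± 177 CPM in Sox4. Acsm1, an acyl-CoA synthetase for medium-chain fatty acids, had 590.1 ± 57.4 and 154 ± 37.7 CPM.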

How the data were processed

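Hepatocyte RNA from 3 EV and 3 Sox4 mice was sequenced; groups and replicate numbers came from the sample labels, with each library taken as 1 animal according to the study's methods. Per the labels and methods, the authors aligned reads to GRCm39 with STAR (2 releases are named, so none is given) and summed them over genes with featureCounts 2.0.1. The table the authors deposited holds raw counts. The authors also deposited a normalized signal, the counts divided by a DESeq2 size factor per library, used here only in an alternative. The annotation release, strand setting and handling of multi-mapping reads are not given in the sources used here.

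These counts went into edgeR 4.0.16 under R 4.3.3 (filterByExpr with a minimum count of 10 and a minimum total of 15, TMM scaling, robust quasi-likelihood F test, no covariate) and Benjamini-Hochberg adjustment over all 12691 genes tested, threshold 0.05. Levels are CPM on TMM-scaled sizes, mean ± SD (n = 3). Each SE is for the log2 CPM difference of the groups (prior count 2). A count of 3 was the floor, 0.150 to 0.231 CPM, and covers counting error only, since PCR copies are not independent molecules. Libraries of a group differed beyond counting noise (chi-square per degree of freedom 18.8 to 71.7). Scripts were tested on simulated counts. Alternatives were DESeq2 1.42.0 (Wald test, or its size factors in edgeR), limma 3.58.1 (voom on counts, or log2 of the deposited signal with a pseudocount of 1), library size alone, no filter, a mean count of at least 50, a replicate block and leaving out each library.

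Transcript lengths, gene order, coding identity and shared 50-base windows came from GENCODE M21 on GRCm38, so no coordinates are taken from it. Start-site sequences came from RefSeq (GRCm38.p6). The 10 genes, the related lists and the tests were chosen with earlier results of these data known. All 10 genes were named in full, along with genes of the other lists that passed, the most abundant tested gene of each list that did not, and the 5 genes with the most alike profile. Gusb, Esd and the other non-passing genes appear under this rule or because a role ties them to a member (Gusb). Protein sequences were not analysed here.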

Additional observations from a re-analysis of the deposited data

How the results depend on the processing

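Changing the test or size factors left the 10 carboxylesterases at 7 calls under DESeq2, voom, the deposited signal, DESeq2 size factors, no filter and the mean-count filter of 50, and 6 with library size alone. With no filter 6 of the 7 were lower and Ces1d was higher. Library size alone moved the median log2 fold change of all genes from 0.04 to 0.51 and the split of all calls from 3306 lower and 3684 higher to 1624 and 6468. On that scale 5 carboxylesterases were lower and 1 higher. Library size alone turned Ces1c to 0.17, Ces2c to 0.068, Pon3 to 0.13, Apob to 0.27, Kdelr1 to 0.044, Kdelr2 to 0.27 and Ppara to 0.26. Other Ces genes past the threshold went from 2 to 5 with no filter, since 8 instead of 3 were then tested.

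Leaving out 1 library at a time gave 6027 to 7269 calls over all genes, 6 to 8 carboxylesterases, 5 to 7 other esterases, 7 to 11 genes of the lipase list, 5 to 6 droplet and VLDL genes, and 2 other Ces genes, 1 ER retrieval gene and 10 regulators throughout. The value of Ppara ranged from -0.38 to 0.0029, the latter without Sox4 replicate 1. Among 713 single-gene values under alternatives, 8 changed sign (with the call of Pon3 and Kdelr1 lost as well), 33 kept their sign but lost their call, 6 gained one and 666 did none of these. Dgat1 lost its call in every fit that left out a library, with no filter and under DESeq2, and Cidec lost it under voom.

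A replicate block called 7362 genes and 7 carboxylesterases, and of the named genes only Lpl lost its call (1.72). Deviations of same-numbered libraries correlated at 0.27, -0.09 and 0.13, and the numbers were not taken as pairs.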
